A study of Homo sapiens with 24 samples.

Results

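K562 cells in which the eHDAC6 element was repressed were compared with K562 cells carrying non-targeting guides. The comparison used 10 of the 24 RNA sequencing libraries of the study: 6 libraries with an eHDAC6 guide (eHDAC6-Guide1 and eHDAC6-Guide2, replicates 1 to 3 of each) and 4 control libraries (NC-Guide3 replicates 2 and 3, NC-Guide4 replicates 2 and 3). The 4 control libraries were chosen from the 12 non-targeting (NC) libraries because their overall expression lay near that of the targeted libraries, so the choice itself rests on measured expression. All genes were examined, and a change was counted where it had the same direction with both guides.

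K562 is a human chronic myeloid leukaemia line that carries the BCR-ABL1 fusion and has erythroid and megakaryocyte features. All 24 cultures, controls included, were K562 cells with a KRAB-fused, catalytically dead Cas9 (dCas9) under a doxycycline-inducible promoter, were transduced with 1 single guide RNA (sgRNA) each, and received doxycycline for 24 hours. The sgRNAs were eHDAC6-Guide1 and eHDAC6-Guide2 against eHDAC6, a putative enhancer of GATA1, GATA1TSS-Guide1 and GATA1TSS-Guide2 against the GATA1 transcription start site, and NC-Guide1 to NC-Guide4 without a target. Each sgRNA had 3 replicates, labelled as biological. RNA came from 10000 lysed cells per culture, and whether the cells were 1 clone is not given in the sources used here.

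In CRISPR interference the sgRNA brings dCas9-KRAB to its site, where KRAB recruits corepressors and chromatin becomes repressed around the site. GATA1 binds DNA through zinc fingers and drives the gene programmes of red cells and megakaryocytes: with cofactors such as FOG1 and the TAL1 complex it activates globin, heme and red cell membrane genes, and it restrains genes of other blood lineages, among them targets of the myeloid factor PU.1. HDAC6, the neighbouring gene that gives the element its name, encodes a mainly cytoplasmic deacetylase of tubulin and other proteins.

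The 10 libraries held between 11426981 and 15629571 counts, with a median of 13331693, and 12846 of 21925 gene entries passed the filter on low counts. The check of the targeted gene, GATA1, is given first among the results below. On principal component 1 of log2 expression, computed from the NC libraries and holding 24.7% of their variance, the 8 control libraries left out lay between 7.96 and 13.3 and the 6 eHDAC6 libraries between -18.8 and -16.9. Of the 4 chosen controls, 3 lay between -19 and -17.2, and NC-Guide3 replicate 3 stood apart at -29.1. NC-Guide3 replicates 2 and 3 also differed more from each other (chi-square per degree of freedom 11.2) than did NC-Guide4 replicates 2 and 3 (3.96) or any replicate pair of an eHDAC6 sgRNA (3.67 to 6.05). Results are given with NC-Guide3 replicate 3 and, where its loss ends a call or changes a count of called genes, without it. For part of the genes described singly the change against all 12 NC libraries is given, since the p-values against the 4 make no allowance for how the 4 were chosen. For the other genes that limit stands with no such value beside it.

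The K562 identity of the libraries was checked with marker genes, as levels in CPM, a library's count of a gene scaled to a common library total. The summed level of the 7 erythroid markers ran from 4837 to 6808 CPM in the eHDAC6 libraries and from 5895 to 6602 in the 4 controls, below the 8940 to 10672 CPM of the 8 other NC libraries. CD14, a monocyte marker, and MPO, a marker of granulocyte precursors, reached at most 4 and 2 counts in any of the 10 libraries, and the platelet gene PF4 had none. Other markers outside the erythroid set were expressed in all 10 libraries. KRT19 stood at 241 to 300 CPM, EPCAM at 50.4 to 71.1, CD33 at 33.0 to 49.2, ITGA2B at 30.0 to 41.4 and CD3D at 9.63 to 31.8. The summed fibroblast and epithelial markers ran from 319 to 386 CPM in the eHDAC6 libraries and from 311 to 358 in the 4 controls. In bulk RNA a lower level cannot be assigned to fewer cells of a kind or to less RNA per cell, because these cannot be told apart.

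Promoter sequence is shown for 4 genes: GATA1, the gene of interest; GPR85, which rose, and TNNI3, which fell, picked because they alone of the named genes with a RefSeq promoter held a pair of GATA motifs; and ASNS, which differed between the eHDAC6 sgRNAs and held the other motif. Each line gives the 250 bases before the RefSeq transcription start on GRCh38.p14, read 5′ to 3′ on the strand of the gene, from chrX:48786340-48786589 (plus strand), chr7:113087725-113087974 (minus), chr19:55157733-55157982 (minus) and chr7:97872409-97872658 (minus), in that order. Capitals mark matches on either strand to AGATAA, the core that GATA factors bind, or to TGATGNAA, an element bound by ATF4 with C/EBP proteins.
GATA1: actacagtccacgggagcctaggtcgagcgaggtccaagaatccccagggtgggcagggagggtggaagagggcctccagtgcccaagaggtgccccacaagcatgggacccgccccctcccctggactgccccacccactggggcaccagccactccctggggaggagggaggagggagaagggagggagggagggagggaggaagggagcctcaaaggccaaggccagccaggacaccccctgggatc
GPR85: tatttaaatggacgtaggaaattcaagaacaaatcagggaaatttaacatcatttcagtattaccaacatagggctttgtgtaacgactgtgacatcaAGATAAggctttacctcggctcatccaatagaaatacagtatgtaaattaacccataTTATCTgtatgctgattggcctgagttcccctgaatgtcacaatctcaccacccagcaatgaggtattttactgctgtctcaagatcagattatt
TNNI3: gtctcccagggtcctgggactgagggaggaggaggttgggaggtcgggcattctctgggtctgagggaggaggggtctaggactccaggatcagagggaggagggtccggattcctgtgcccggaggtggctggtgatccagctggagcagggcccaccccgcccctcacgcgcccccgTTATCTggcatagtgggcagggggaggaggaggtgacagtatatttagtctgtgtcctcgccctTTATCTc
ASNS: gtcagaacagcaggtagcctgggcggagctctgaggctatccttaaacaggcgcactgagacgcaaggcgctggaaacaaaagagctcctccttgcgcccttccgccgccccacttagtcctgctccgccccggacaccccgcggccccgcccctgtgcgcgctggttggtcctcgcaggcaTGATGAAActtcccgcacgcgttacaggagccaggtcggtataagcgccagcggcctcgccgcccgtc
The GATA1 window held neither motif. GPR85 had AGATAA 152 bases before its start and its reverse complement 95 bases before, TNNI3 had the reverse complement 71 and 7 bases before, and ASNS had TGATGAAA 68 bases before. AGATAA stood in 5.02% of the windows of the 9009 tested genes that matched a RefSeq promoter, in 7 of 133 matched genes that rose (5.26%) and in 7 of 105 that fell (6.67%). TGATGNAA stood in 1.52%, 3.01% and 3.81% of the same sets. Over all 27305 RefSeq promoters the shares were 9.37% for AGATAA and 3.19% for TGATGNAA. A match describes letters in this window and is not a binding site.

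Repression of eHDAC6 went with a small number of mostly modest changes. A gene was called when the edgeR quasi-likelihood test of the mean of both eHDAC6 sgRNAs against the mean of NC-Guide3 and NC-Guide4 gave a Benjamini-Hochberg adjusted p under 0.05 and both sgRNAs moved the same way. By that rule 197 genes rose (1.53% of the 12846 tested) and 150 fell (1.17%). The median size of the called changes was 0.375 on the log2 scale, 72 exceeded 1.5-fold (60 rises and 12 falls), and the median change of all genes tested was -0.00381. All 6 eHDAC6 libraries lay above all 4 controls for 242 genes (1.88%) and below them for 260 (2.02%), and 191 of the called genes had such non-overlapping values. Each sgRNA on its own, against the same 4 controls, passed the test for 65 genes in a shared direction, 45 up and 20 down, and for 0 in opposite directions. Because those tests share their controls, the sgRNAs were also set against separate ones. With eHDAC6-Guide1 against NC-Guide3 and eHDAC6-Guide2 against NC-Guide4, 16 genes passed both tests in the same direction and 2 in opposite directions. With the controls exchanged, 21 and 1 did.

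The size of the called set depended on single libraries. Without NC-Guide3 replicate 3 the call covered 1022 genes (666 up, 356 down), and without NC-Guide4 replicate 3 it covered 114. Without eHDAC6-Guide2 replicate 3 it covered 160, without NC-Guide4 replicate 2 it covered 200, without eHDAC6-Guide1 replicate 3 it covered 204 and without eHDAC6-Guide1 replicate 1 it covered 223. Of the 347 called genes, 89 (52 up, 37 down) were called in every 1 of the 10 fits that left out a library. Against all 12 NC libraries 2044 genes were higher (15.8% of 12977) and 1892 lower (14.6%). Those larger counts contain the difference between the 8 other controls and the 4, and its part in them was not tested.

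GATA1 fell with both sgRNAs. GATA1 lies at chrX:48644982-48652717 on hg19 (plus strand, 6 exons). Its level was 253, 242 and 246 CPM in the 3 eHDAC6-Guide1 libraries and 255, 257 and 267 CPM in the 3 eHDAC6-Guide2 libraries. It was 359 and 372 CPM in the NC-Guide3 libraries and 381 and 352 in the NC-Guide4 libraries. Every eHDAC6 library lay below every control, and the highest eHDAC6 value was well under the lowest control value. The mean was 254 ± 8.61 CPM (SD, n = 6) against 366 ± 12.8 CPM (SD, n = 4), or 69.3% of control, a log2 fold change of -0.53 (SE 0.05, edgeR adjusted p = 9.96e-07). The exact two-sided permutation test of the CPM values gave p = 0.00952, the smallest value that 210 assignments allow. That test treats libraries that share an sgRNA as independent, so it does not measure the spread between sgRNAs. With counts summed per sgRNA the GATA1 change was -0.53 (edgeR adjusted p = 0.00539). Taken singly, the change was -0.57 with Guide1 and -0.49 with Guide2, and the test of the difference between them gave -0.08 (edgeR adjusted p = 0.938). The 8 other NC libraries had a median of 371 CPM and ranged from 280 to 394, and the change against all 12 was -0.51.

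HDAC6 was lower by a smaller amount, and its call held in some alternatives and not in others. HDAC6 lies 15.5 kb downstream of the GATA1 start (chrX:48660487-48683380, 29 exons). Its level was 143, 139 and 148 CPM with Guide1, 141, 122 and 134 CPM with Guide2, and 146, 173, 160 and 165 CPM in the 4 controls. The groups overlapped, since eHDAC6-Guide1 replicate 3 lay above NC-Guide3 replicate 2. The means were 138 ± 9.09 CPM (SD, n = 6) and 161 ± 11.2 CPM (SD, n = 4), and the log2 fold change was -0.23 (SE 0.06, edgeR adjusted p = 0.0338). The exact two-sided permutation p was 0.019, again with libraries that share an sgRNA treated as independent. The change was larger against all 12 NC (-0.34, edgeR adjusted p = 0.000967) and against all 6 libraries of NC-Guide3 and NC-Guide4 (-0.31, 0.0364), and DESeq2 gave -0.22 (adjusted p = 0.0166). Leaving out any 1 of 8 libraries ended the call: the edgeR adjusted p was 0.0863 and the change -0.16 without NC-Guide3 replicate 3, and 0.181 without NC-Guide4 replicate 3. It was 0.09 without NC-Guide4 replicate 2, 0.078, 0.0663 and 0.0596 without eHDAC6-Guide1 replicates 1, 2 and 3, and 0.0629 and 0.0732 without eHDAC6-Guide2 replicates 2 and 3.

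Besides GATA1 and HDAC6, 3 tested genes of the locus were called against the 4 controls. Among 74 genes that start no more than 1 Mb from the GATA1 start, 67 passed the filter, 2 fell (GATA1 and HDAC6) and 3 rose, and the median over the 67 was -0.0386. Over all genes tested 1.53% rose and 1.17% fell. Within 100 kb only SUV39H1 and GLOD5 were tested beside GATA1 and HDAC6. SUV39H1, a histone H3 lysine 9 methyltransferase, stood at 54.9 ± 4.75 CPM (SD, n = 6) against 55.7 ± 3.74 (SD, n = 4), with a change of -0.03 (edgeR adjusted p = 0.897), and -0.03 against all 12 NC. GLOD5, at 0.846 ± 0.388 against 1.21 ± 0.414 CPM, had a change of -0.54 that did not pass (edgeR adjusted p = 0.448), and one of -1.38 against all 12 NC that did (0.00126). The 22 tested GAGE genes, a cluster of near-identical cancer-testis antigens whose reads cannot be well separated, gave 0 calls against the 4 controls, with changes between -0.111 and 0.0275. Their changes against all 12 NC lay between -0.37 and -0.275. CCDC22 missed the threshold at -0.27 (edgeR adjusted p = 0.0501).

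The risers of the locus lay farther from GATA1. WAS, which encodes the actin regulator that is mutated in Wiskott-Aldrich syndrome and is active in blood cells, stood at 93.5, 96.1 and 92.9 CPM with Guide1, 79.9, 87.3 and 89.9 with Guide2, and 70.6, 68.4, 71.2 and 70.7 in the controls. All 6 eHDAC6 libraries exceeded all 4 controls, and the change was 0.35 (SE 0.06, edgeR adjusted p = 0.000776). The 8 other NC libraries lay lower still, at 42.9 to 59.9 CPM, and the change against all 12 was 0.70. SSX3, a cancer-testis antigen with close copies, ran from 22.4 to 26.1 CPM against 15.5 to 18.4, a change of 0.51 (SE 0.09, edgeR adjusted p = 0.00138), and 0.61 against all 12 NC. PLP2, a membrane proteolipid gene whose exons overlap the antisense gene PRICKLE3, changed by 0.25 (edgeR adjusted p = 0.044), and by 0.55 against all 12 NC. Its groups overlapped, and the loss of any 1 of 8 libraries ended the call, with an adjusted p between 0.0541 (without eHDAC6-Guide2 replicate 1) and 0.184 (without NC-Guide4 replicate 2) and 0.0586 without NC-Guide3 replicate 3.

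**Figure D1:**
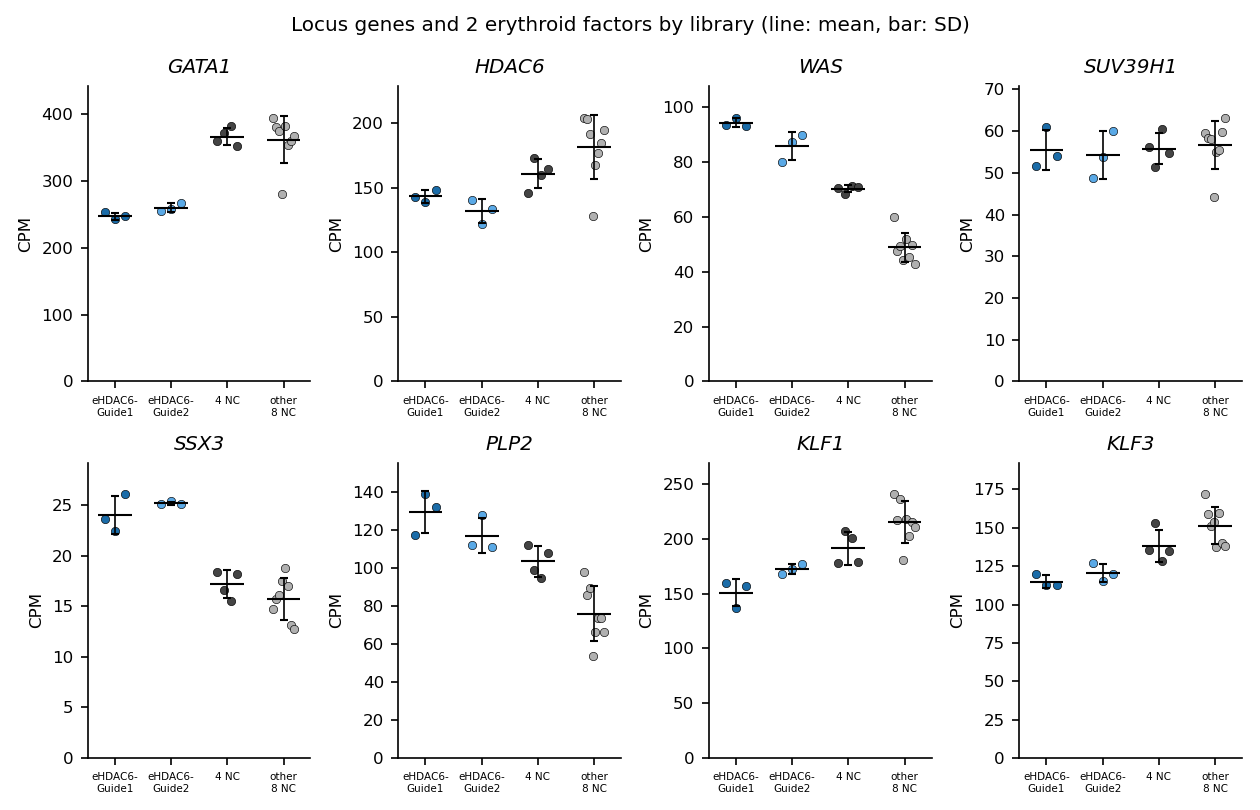
Level in CPM (y axis, from 0) of 6 genes of the GATA1 locus and of KLF1 and KLF3 in each library, by group (x axis); points are libraries, the line is the mean and the bar the SD, and the 8 other NC libraries are shown in grey. GATA1 stood between 242 and 267 CPM in the 6 eHDAC6 libraries and between 352 and 381 CPM in the 4 controls.

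Of the called genes, 171 had a mean of at least 5 CPM over the 10 libraries and all 6 eHDAC6 libraries beyond all 4 controls, 94 up and 77 down, and the 15 largest rises and 15 largest falls among them are described here. Their groups are apart because they were chosen so. CALB1, BMX, ROBO2 and COL9A2 rose most, each more than 2-fold and from under 6 CPM in every control. CALB1, which encodes the calcium-binding protein calbindin, was at 12.8, 15.1 and 10.5 CPM with Guide1, 17.2, 18.2 and 23 CPM with Guide2, and 3.70, 5.78, 4.98 and 3.75 CPM in the controls. The Guide2 libraries were the higher ones. The log2 fold change was 1.79 (SE 0.15, edgeR adjusted p = 9.96e-07), and it was 1.54 against all 12 NC. BMX, a tyrosine kinase of the Tec family, rose from 2.90 ± 0.678 CPM (SD, n = 4) to 7.25 ± 1.97 CPM (SD, n = 6), a change of 1.28 (SE 0.17, edgeR adjusted p = 0.000128). ROBO2, a receptor for Slit guidance proteins, rose from 3.27 ± 0.473 to 7.46 ± 1.65 CPM, a change of 1.17 (SE 0.15). COL9A2, a chain of type IX collagen, rose from 4.51 ± 0.708 to 9.26 ± 1.35 CPM, a change of 1.05 (SE 0.15). Against all 12 NC the changes of BMX, ROBO2 and COL9A2 were 0.91, 1.05 and 1.14.

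SYTL1, a Rab27-binding protein of vesicle traffic, and GPR85, an orphan G protein-coupled receptor, were the best resolved of the further rises. SYTL1 stood at 41.1, 45.4 and 41.8 CPM with Guide1, 38.3, 36.4 and 39.5 CPM with Guide2, and 17.3, 23.6, 27.0 and 20.9 CPM in the controls. All 6 values exceeded the highest control, and the change was 0.87 (SE 0.09, edgeR adjusted p = 8.67e-06), or 0.64 against all 12 NC. GPR85 stood at 19.1, 23.3 and 19 CPM with Guide1, 23.2, 22.8 and 29.1 CPM with Guide2, and 12.5, 12.7, 11.7 and 9.45 CPM in the controls. It was higher in 6 of 6 libraries, by 0.96 (SE 0.11, edgeR adjusted p = 1.63e-05) and by 1.43 against all 12 NC, and its promoter window held the pair of AGATAA matches shown above.

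The other 9 of the 15 largest rises ran from 0.70 to 0.97 on the log2 scale. They were PTPN22 (0.97), a phosphatase that restrains lymphocyte signalling, BTBD19 (0.91), S1PR3 (0.88), a receptor for sphingosine 1-phosphate, and P2RX5 (0.82), an ATP-gated channel. The rest were DENND1C (0.82), which activates Rab GTPases, EVI2B (0.75), a membrane protein of blood cells, SOSTDC1 (0.74), a secreted antagonist of BMP and Wnt signals, the long noncoding RNA LINC00861 (0.71) and ARHGAP9 (0.70). P2RX5 was the only 1 of the 15 with a called difference between the sgRNAs, of -0.77 (edgeR adjusted p = 0.019). It stood at 6.96 to 9.49 CPM under Guide1, 13.3 to 14.5 CPM under Guide2 and 5.46 to 6.35 CPM in the controls. The call was lost without eHDAC6-Guide1 replicate 1 or 3 or any 1 of the eHDAC6-Guide2 libraries (0.0595 to 0.152). BMX and ROBO2 were also uneven without such a call. Against NC-Guide4 they rose by 0.80 and 1.05 with Guide1 and by 1.49 and 1.61 with Guide2. All 15 were also called against all 12 NC and without NC-Guide3 replicate 3. BTBD19 lost its call without eHDAC6-Guide2 replicate 3, NC-Guide3 replicate 2 or NC-Guide4 replicate 3 (edgeR adjusted p = 0.053, 0.0519 and 0.0848), and DENND1C without NC-Guide4 replicate 2 (0.0686). Exons of PTPN22, DENND1C and ARHGAP9 overlap an antisense gene and those of S1PR3 and P2RX5 a gene on the same strand, so reads at these genes could belong to the partner.

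The falls were smaller than the rises, and GATA1 had, with CALB1, the lowest adjusted p of the 30 genes. TAC3, the precursor of the peptide neurokinin B, showed the largest fall of the 15, with 6.89, 4.44 and 4.25 CPM under Guide1, 5.59, 3.36 and 4.83 CPM under Guide2, and 8.83, 8.37, 12 and 10.1 CPM in the controls. The change was -0.99 (SE 0.16, edgeR adjusted p = 0.000842). IL10RA, a chain of the interleukin 10 receptor, fell from 34.1 ± 5.11 (SD, n = 4) to 21.5 ± 2.59 CPM (SD, n = 6), a change of -0.67 (SE 0.09, edgeR adjusted p = 0.000229). APLNR, the apelin receptor, fell from 7.18 ± 0.58 to 4.54 ± 0.384 CPM, a change of -0.66, and lost its call without NC-Guide4 replicate 2 (edgeR adjusted p = 0.058). The changes of TAC3, IL10RA and APLNR against all 12 NC were -1.58, -0.56 and -1.10.

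SLC7A11 and PSAT1 were lower with both sgRNAs but by unlike amounts. SLC7A11, the cystine-glutamate antiporter, stood at 53.7, 53 and 58.2 CPM with Guide1, 37.4, 33.1 and 32.6 CPM with Guide2, and 82.4, 62.4, 67.6 and 78.7 CPM in the controls. PSAT1, an aminotransferase of serine synthesis, stood at 90.4, 90.0 and 103 CPM with Guide1, 61.1, 55.4 and 64.3 CPM with Guide2, and 122, 111, 110 and 107 CPM in the controls. For both genes the Guide2 libraries were lowest, the controls highest and the Guide1 libraries between them. The fitted changes were -0.75 (SE 0.08) for SLC7A11 and -0.58 (SE 0.06) for PSAT1, each with an edgeR adjusted p of 8.67e-06, and -1.58 and -1.77 against all 12 NC. With Guide1 alone in the contrast the changes were -0.41 (edgeR adjusted p = 0.03) and -0.26 (0.0872), so PSAT1 did not pass, and with the Guide2 libraries taken out of the fit neither passed (0.0848 and 0.144). SLC7A11-AS1, which overlaps SLC7A11 on the other strand, followed at -0.70, and reads of the pair may be shared between them.

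The other falls of the 15 ran from -0.57 to -0.44. They were PMP22 (-0.57), a membrane protein of myelin, ZNF749 (-0.55), PACSIN1 (-0.47), an adaptor of endocytosis, TNNI3 (-0.46), cardiac troponin I, and RYBP (-0.45), a Polycomb repressive complex 1 subunit. TNXB (-0.45), which encodes tenascin X, and its partial copy TNXA (-0.46) overlap and had nearly the same counts, so they are 1 observation, and CCDC26 (-0.44) is a long noncoding RNA. Of the 15 falls, 13 were called against all 12 NC. The exceptions were TNXA and TNXB, at -0.18 each (edgeR adjusted p = 0.113 and 0.118). TNXB stood at 43.8 to 57.7 CPM in the 8 other NC libraries and at 41.7 to 55.4 CPM in the eHDAC6 libraries. TNNI3 was called there at -0.21. ZNF749 lost its call when any 1 of 4 libraries was left out (eHDAC6-Guide1 replicate 1, eHDAC6-Guide2 replicate 3, NC-Guide4 replicate 2 or 3, edgeR adjusted p between 0.051 and 0.0988). PACSIN1 lost it for any 1 of 5 (eHDAC6-Guide1 replicate 1, eHDAC6-Guide2 replicates 1 and 3, NC-Guide4 replicates 2 and 3, between 0.0711 and 0.137).

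**Figure D2:**
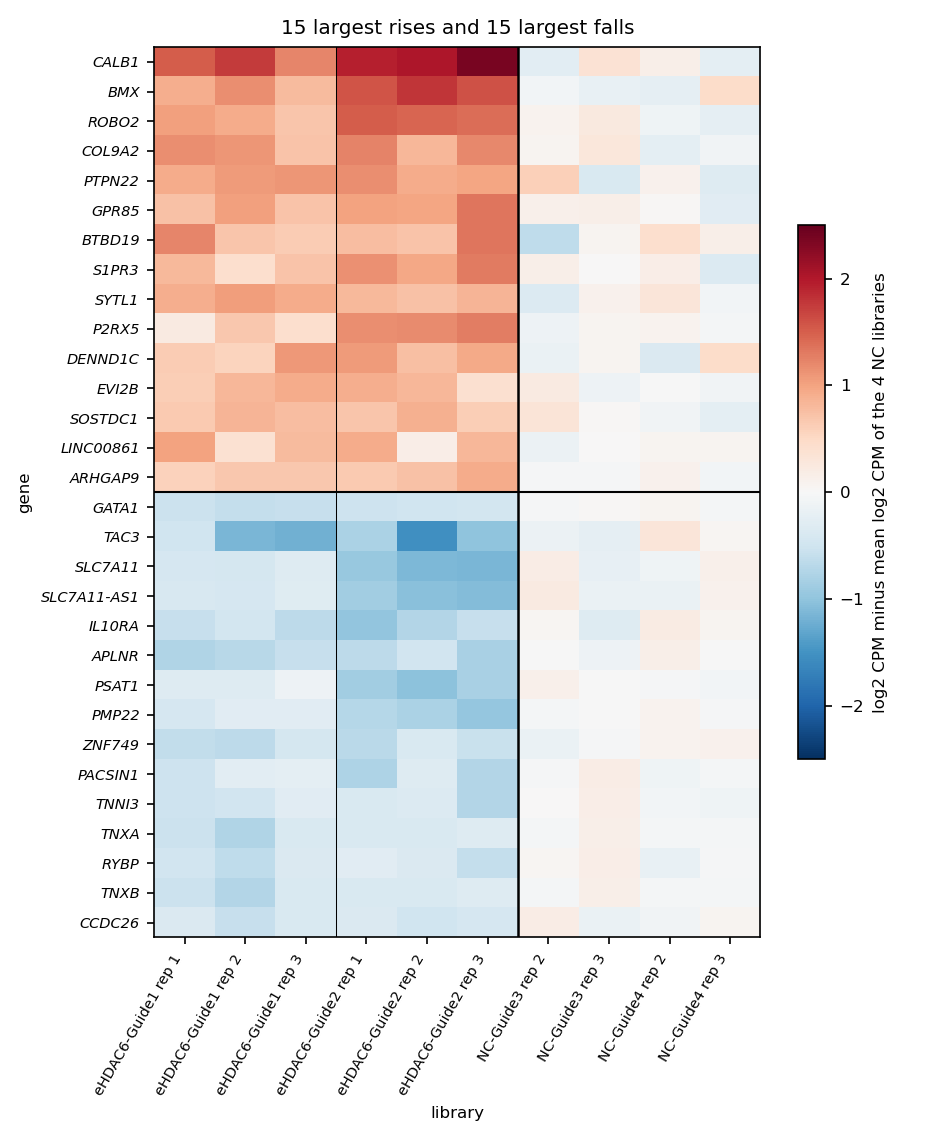
Log2 CPM of each of the 10 libraries (columns) minus the mean log2 CPM of the 4 NC libraries (colour scale) for the 15 largest rises and 15 largest falls (rows). Genes were selected for groups that do not overlap, so the contrast between the 6 eHDAC6 and 4 NC columns follows from the selection. The rows of SLC7A11, PSAT1 and P2RX5, among others, show a stronger change with Guide2.

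The 16 genes that passed with eHDAC6-Guide1 against NC-Guide3 and eHDAC6-Guide2 against NC-Guide4 were 14 rises and 2 falls. The falls were GATA1, at -0.57 and -0.50 in the respective tests, and MAN1A1, a Golgi mannosidase, at -0.42 and -0.32. Of the rises, CALB1, BMX, GPR85, SYTL1, EVI2B, SOSTDC1 and ARHGAP9 are described above and LST1 below. The remaining 6 were CD68, LAPTM5, FMNL1, TNFRSF1A, APOBR and STXBP5-AS1, which, like MAN1A1, were singled out after their values were seen. With the controls exchanged, 14 of the 16 passed, and BMX and MAN1A1 did not. CD68, a lysosomal glycoprotein used as a macrophage marker, ran from 115 to 124 CPM in the eHDAC6 libraries and from 87.9 to 90.9 CPM in the controls, a change of 0.41 (SE 0.05, edgeR adjusted p = 6.1e-05). LAPTM5, a lysosomal membrane protein of blood cells, ran from 754 to 940 CPM against 518 to 673 CPM, a change of 0.56 (SE 0.07, edgeR adjusted p = 3.34e-05). FMNL1, a formin of blood cells that builds actin filaments, ran from 101 to 120 CPM against 72.2 to 83.1 CPM, a change of 0.53 (SE 0.06, edgeR adjusted p = 8.67e-06). The changes of TNFRSF1A, a receptor for tumour necrosis factor, APOBR, a lipoprotein receptor, and the antisense RNA STXBP5-AS1 were 0.54, 0.45 and 0.43, and none of the 6 had overlapping groups or lost its call when 1 library was left out.

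Among 20 tested erythroid regulators, 3 fell, 0 rose and the median change was -0.01, where 1.17% of all genes tested fell. Without NC-Guide3 replicate 3 the count was 1 fall and 2 rises. Beside GATA1 these were KLF1, the erythroid Krüppel-like activator of the beta-globin genes, and KLF3, a repressor of the same family. KLF1 stood at 160, 137 and 157 CPM with Guide1, 168, 172 and 177 CPM with Guide2, and 178, 208, 201 and 179 CPM in the controls, a change of -0.25 (SE 0.06, edgeR adjusted p = 0.0241). KLF3 stood at 113 to 127 CPM against 129 to 153 CPM, a change of -0.23 (SE 0.05, edgeR adjusted p = 0.0241), and its exons overlap KLF3-AS1. The groups did not overlap for either gene, but in KLF1 the gap between them was narrow. Against all 12 NC the changes of KLF1 and KLF3 were -0.35 and -0.31, and without NC-Guide3 replicate 3 they were -0.19 and -0.18 (edgeR adjusted p = 0.0506 and 0.0531, neither called). KLF1 also lost its call without eHDAC6-Guide1 replicate 2, eHDAC6-Guide2 replicate 1 or 3, or NC-Guide4 replicate 2 (0.0522 to 0.141), and KLF3 without eHDAC6-Guide1 replicate 3, eHDAC6-Guide2 replicate 3, or NC-Guide4 replicate 2 or 3 (0.0602 to 0.163). TAL1 and LMO2, partners of GATA1 in its activating complex, had changes of -0.02 and -0.08 (edgeR adjusted p = 0.911 and 0.542).

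Of 8 tested progenitor regulators 1 rose, where 1.53% of all genes tested did, and the count ran from 0 to 2 on leaving out each library, with 2 without NC-Guide3 replicate 3. SPI1, which encodes PU.1, stood at 111, 115 and 111 CPM with Guide1, 117, 117 and 124 CPM with Guide2, and 97.8, 91.6, 103 and 92.6 CPM in the controls. The groups did not overlap, and the change was 0.26 (SE 0.05, edgeR adjusted p = 0.00856). The change was 0.71 against all 12 NC. SPI1 lost its call without NC-Guide4 replicate 3 (0.108) and kept it without NC-Guide3 replicate 3 (0.0107). GATA2, the related factor that GATA1 replaces during erythroid maturation, had 264 to 310 CPM against 243 to 293 CPM, a change of 0.05 (edgeR adjusted p = 0.701).

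Of 11 tested myeloid markers 5 rose and 0 fell, where 1.53% of all genes tested rose. The median change of the 11 was 0.39, against -0.00381 over all genes. LST1, a small membrane protein of leukocytes, stood at 4.59, 6.03 and 3.94 CPM with Guide1, 4.61, 6.45 and 4.83 CPM with Guide2, and 1.49, 1.93, 1.59 and 1.88 CPM in the controls. Every eHDAC6 library was above every control, and the change was 1.55 (SE 0.21, edgeR adjusted p = 0.00015), at a low level and with exons that overlap the antisense gene NCR3. AIF1, a calcium-binding protein of macrophages, rose from 20.1 ± 3.48 CPM (SD, n = 4) to 29.5 ± 4.03 CPM (SD, n = 6), a change of 0.55 (SE 0.11). CSF3R, the receptor for granulocyte colony-stimulating factor, rose by 0.59, TYROBP, a signalling adaptor of myeloid and natural killer cells, by 0.51, and the lysosomal protease CTSS by 0.26.

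The last 3 of these calls were close to the threshold, with edgeR adjusted p of 0.0268, 0.0396 and 0.0496, and the groups of TYROBP and CTSS overlapped. CSF3R lost its call without eHDAC6-Guide1 replicate 1 or 3, eHDAC6-Guide2 replicate 3, NC-Guide3 replicate 2 or NC-Guide4 replicate 2 (0.0664 to 0.131). TYROBP lost it without eHDAC6-Guide1 replicate 2 or 3, any 1 of the eHDAC6-Guide2 libraries or NC-Guide4 replicate 2 (0.0539 to 0.194), and CTSS lost it without any library other than NC-Guide3 replicate 3 (up to 0.218). The count of 5 stayed at 5 without NC-Guide3 replicate 3 and fell to 2 without eHDAC6-Guide1 replicate 3 or eHDAC6-Guide2 replicate 3. DESeq2 called the same 5. The defining markers CD14, MPO and CSF1R were at or near 0 in all 10 libraries, with at most 7 counts, and the summed level of the 6 myeloid markers set for the check of cell identity ran from 122 to 140 CPM in the eHDAC6 libraries and from 108 to 123 CPM in the controls. LYZ, the most abundant of the 6, was at 72.8 to 88.0 CPM against 62.1 to 78.7 CPM. The part of these marker levels in the rises was not tested. Among megakaryocyte markers 1 of 9 rose, where 1.53% of all genes tested did. It was PLEK, a substrate of protein kinase C in platelets, at 0.222 to 0.450 CPM in the controls and 0.893 to 2.13 CPM with eHDAC6. The change was 2.12 (SE 0.40, edgeR adjusted p = 0.0039), at a low level, and DESeq2 called 0 of the 9. Among lymphocyte markers 1 of 6 rose, SLAMF6, a receptor of T and natural killer cells (0.60, edgeR adjusted p = 0.0192), and it lost its call without eHDAC6-Guide2 replicate 3 or NC-Guide4 replicate 2 or 3 (0.0519 to 0.0943).

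Calls among genes of the mature red cell against the 4 controls are set beside all genes tested, of which 1.53% rose and 1.17% fell. None of 10 globin and globin chaperone genes was called by edgeR in a shared direction, 3 had an unadjusted p under 0.05 and DESeq2 called 0, with a median change of -0.08. HBZ, embryonic zeta globin, passed the test of the mean (-0.22, edgeR adjusted p = 0.0401) but moved by -0.45 with Guide1 and 0.00 with Guide2. In heme biosynthesis 1 of 13 fell, ALAS2, the erythroid enzyme of the first step, from 343 ± 21.6 CPM (SD, n = 4) to 296 ± 30.4 CPM (SD, n = 6), a change of -0.22 (edgeR adjusted p = 0.0382). Its groups overlapped, and the call ended without eHDAC6-Guide1 replicate 2 or 3, eHDAC6-Guide2 replicate 1 or 3, NC-Guide3 replicate 3, or NC-Guide4 replicate 2 or 3 (0.0513 to 0.137). Of 13 iron handling genes edgeR called 0, with 4 at an unadjusted p under 0.05, and DESeq2 called 3. Of 25 red cell membrane and blood group genes AQP1, a water channel (0.45), and ADD2, an adducin subunit of the membrane skeleton (0.21), were higher and SPTB, beta spectrin, lower (-0.29). DESeq2 called 5 of the 25 and, in heme biosynthesis, ALAS2 alone. AQP1 rose less with Guide1 than with Guide2 (difference -0.68). Over 23 alternatives the AQP1 change ran from 0.11 to 0.79, and 4 of them ended the call. The SPTB change ran from -0.85 to -0.15 over the same 23, and 5 of them ended its call. ADD2 turned to -0.06 against all 12 NC, and its call ended without any 1 of 8 libraries, all but eHDAC6-Guide2 replicate 3 and NC-Guide3 replicate 3 (0.0511 to 0.256). The 4 controls were chosen on an axis along which globin, membrane and stress response genes differ, so for these lists the values against the 4 are a description. Against all 12 NC the medians were -0.53 for globins, -0.18 for heme biosynthesis, -0.16 for iron handling and -0.23 for membrane genes. Without NC-Guide3 replicate 3 heme biosynthesis had 1 rise and 1 fall and the membrane list 3 rises and 4 falls.

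The comparison of the eHDAC6 sgRNAs with each other takes no level from a control library. It called 29 genes higher with Guide1 (0.226% of 12846) and 18 lower (0.14%), and 12 of the former were in the stress response list and 6 of the latter in the globin list. Of 10 globin genes 6 were lower with Guide1 (HBA1, HBA2, HBE1, HBG1, HBG2 and HBZ, by -0.46 to -0.38), and 1 was without eHDAC6-Guide1 replicate 3. HBE1, embryonic epsilon globin, stood at 1858, 1772 and 1724 CPM with Guide1, 2378, 2578 and 2356 CPM with Guide2, and 2077, 2478, 2233 and 2288 CPM in the controls, so that the controls lay between the sgRNAs or within Guide2. The difference was -0.45 (SE 0.07, edgeR adjusted p = 0.00187). SLC4A1, the red cell anion exchanger band 3, stood at 40.8, 27.1 and 29.4 CPM with Guide1, 80.5, 85.9 and 81.3 CPM with Guide2, and 34.0, 59.8, 42.3 and 42.7 CPM in the controls. Its difference of -1.34 (SE 0.15, edgeR adjusted p = 5.67e-05) was the largest between the sgRNAs among genes of at least 5 CPM, and all Guide2 libraries were above all others of the 10. AQP1 (-0.68) and CA1, carbonic anhydrase 1 (-0.62), were also lower with Guide1.

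Genes of the integrated stress response, which ATF4 activates when amino acids or protein folding fail, went the other way. Of 21 tested, 12 were higher with Guide1 than with Guide2 and 0 lower, where 0.226% and 0.14% of all genes tested were. The 12 became 4 without eHDAC6-Guide1 replicate 3, 6 without eHDAC6-Guide2 replicate 3 and 9 to 14 without any other library. ASNS, asparagine synthetase, whose promoter window held the TGATGNAA match shown above, stood at 248, 241 and 276 CPM with Guide1, 166, 160 and 149 CPM with Guide2, and 299, 285, 253 and 265 CPM in the controls. Guide1 libraries reached into the control range and Guide2 libraries lay below it, a difference of 0.69 (SE 0.07, edgeR adjusted p = 1.69e-05). The differences of ATF5, DDIT4, SLC7A11, PSAT1 and SLC7A5 were 0.70, 0.67, 0.67, 0.64 and 0.57. Against the 4 controls 1.17% of all genes tested were called lower. Of the 21, 11 were called lower and 0 higher, with medians of -0.08 for Guide1 and -0.64 for Guide2. That count rose to 13 without NC-Guide3 replicate 3 and fell to 5 without NC-Guide4 replicate 3. Only 2 of the 21, SLC7A11 and PSAT1, had all 6 libraries below the controls, as did 2.02% of all genes tested. No difference between the sgRNAs was called for GATA1 (-0.08).

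The largest differences between the sgRNAs outside those lists were in PRG2, an eosinophil granule protein (-0.95), COL1A1, a type I collagen chain (-0.85), ACP5, an acid phosphatase of osteoclasts and macrophages (-0.80), and AQP3, a water and glycerol channel (-0.76). AKNA, an AT-hook factor, was higher with Guide1 (0.66). The count of 47 differences fell to 12 without eHDAC6-Guide1 replicate 3, to 20 without eHDAC6-Guide2 replicate 3, to 25 and 28 without eHDAC6-Guide2 replicates 1 and 2, and to 30 and 29 without eHDAC6-Guide1 replicates 1 and 2. It rose to 72 and 73 without NC-Guide3 replicates 2 and 3, which enter through the filter on low counts, the scaling and the shared estimate of the spread. ATF5 lost its call without eHDAC6-Guide1 replicate 3, its highest library at 177 CPM, where the difference was 0.50 (edgeR adjusted p = 0.0552), and without eHDAC6-Guide2 replicate 3 (0.055). DDIT4 lost it without eHDAC6-Guide1 replicate 2 or 3 or eHDAC6-Guide2 replicate 1 or 3 (0.0775 to 0.168). ACP5 lost it without eHDAC6-Guide1 replicate 1 or 2 or eHDAC6-Guide2 replicate 1 or 3 (0.0629 to 0.128). AKNA and PRG2 each lost it without any 1 of 5 eHDAC6 libraries, AKNA keeping it without eHDAC6-Guide1 replicate 2 and PRG2 without eHDAC6-Guide1 replicate 3. COL1A1 lost it without any 1 of the 6, and AQP3 without any but eHDAC6-Guide1 replicate 2; both also lost it without NC-Guide4 replicate 2 or 3.

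**Figure D3:**
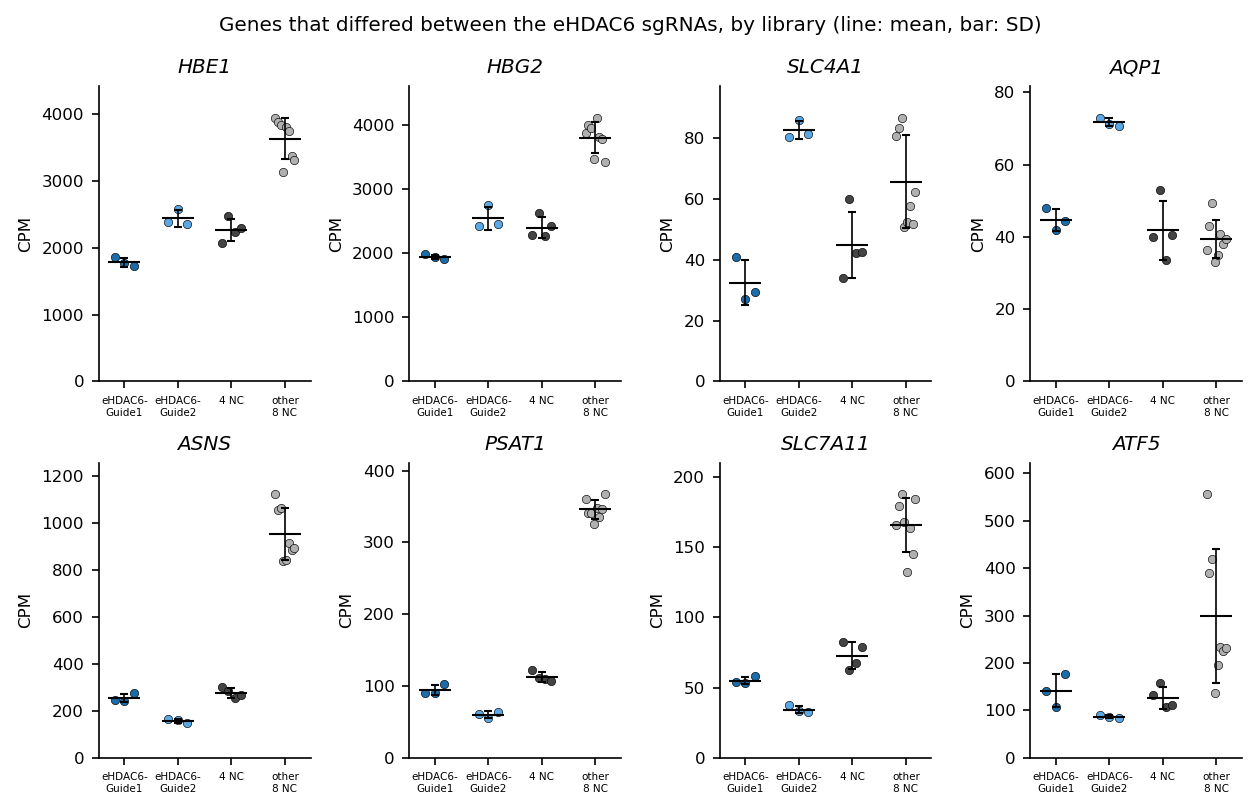
Level in CPM (y axis, from 0) of 4 globin and membrane genes (top) and 4 stress response genes (bottom) in each library, by group (x axis); points are libraries, the line is the mean and the bar the SD. The genes were chosen because the eHDAC6 sgRNAs differed: SLC4A1 stood at 27.1 to 40.8 CPM with Guide1 and 80.5 to 85.9 CPM with Guide2, and ASNS at 241 to 276 and 149 to 166 CPM.

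The remaining lists held at most 1 edgeR call each, where 1.53% of all genes tested rose and 1.17% fell. None of 44 cytosolic ribosomal protein genes was called by edgeR or DESeq2 or had an unadjusted p under 0.05, and their changes lay between -0.08 and 0.02. The 12 genes of the MYC network gave 0 calls by edgeR, 2 by DESeq2 (MYC and ODC1) and 2 at an unadjusted p under 0.05, MYC changing by -0.17 (edgeR adjusted p = 0.0652, and 0.0166 without NC-Guide3 replicate 3, where the change was -0.20). Neither edgeR nor DESeq2 called any of 16 S phase genes, 15 p53 targets, 11 interferon response genes, 16 cholesterol biosynthesis genes, 19 glycolysis genes, 12 heat shock and chaperone genes, 11 autophagy genes and 7 fibroblast and epithelial markers. At an unadjusted p under 0.05 these lists held 3, 2, 3, 2, 2, 0, 2 and 1 genes, in that order. Without NC-Guide3 replicate 3 edgeR called 1 rise and 2 falls in the MYC network, 2 falls in S phase, 1 rise each among interferon, cholesterol and fibroblast and epithelial genes, 1 fall in autophagy, 2 falls in G2 and M phase, and 1 rise and 2 falls among immediate early genes. Against all 12 NC the median of the heat shock list was 0.15, with 5 genes higher. Among 15 genes of G2 and M phase CCNA2, cyclin A2, fell from 291 ± 10.7 CPM (SD, n = 4) to 250 ± 8.85 CPM (SD, n = 6), a change of -0.22 (edgeR adjusted p = 0.0158) that lost its call without eHDAC6-Guide2 replicate 3, NC-Guide3 replicate 2 or NC-Guide4 replicate 3 (0.0538 to 0.127). Among 17 immediate early genes IER5 rose by 0.25 (edgeR adjusted p = 0.0213), a call lost without eHDAC6-Guide1 replicate 2, eHDAC6-Guide2 replicate 3 or NC-Guide4 replicate 3 (0.053 to 0.16). A p above the threshold does not show that these genes were equal.

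**Figure D4:**
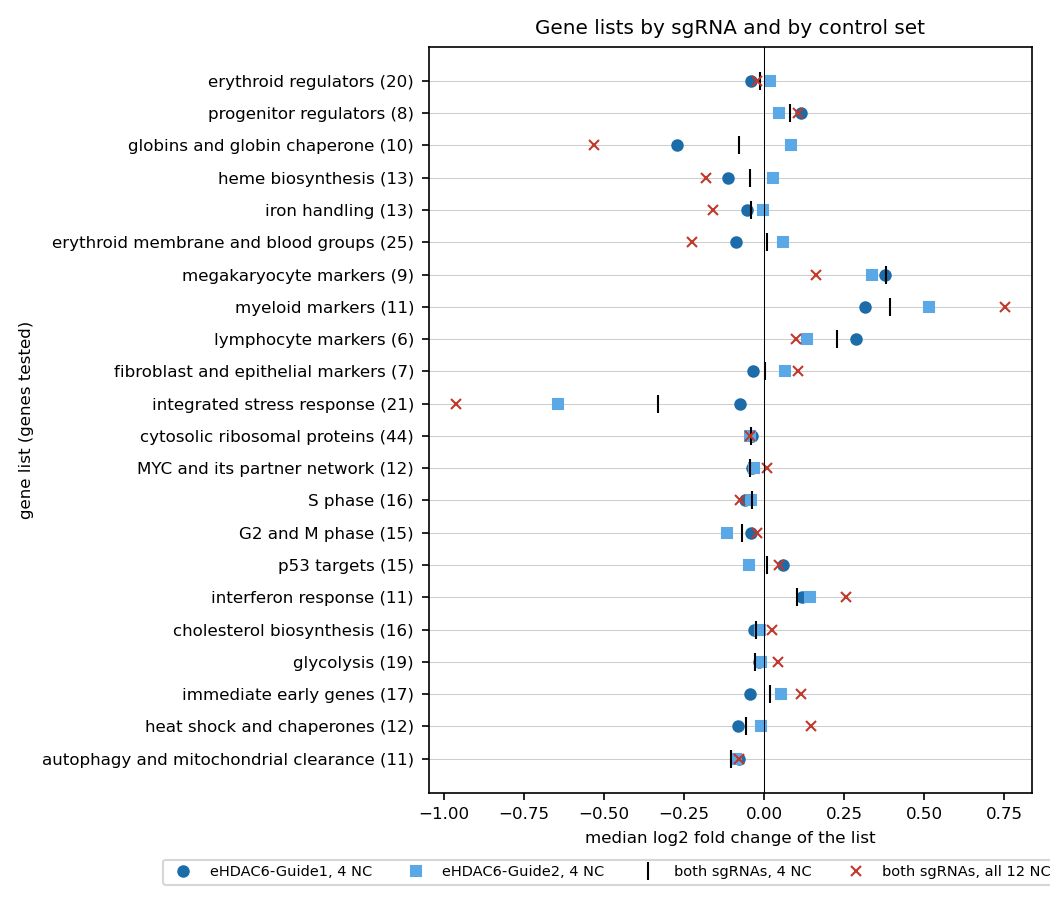
Median log2 fold change (x axis) of each gene list (y axis, with the number of genes tested) for each eHDAC6 sgRNA and for both against the 4 NC libraries, and for both against all 12. The stress response list lies at -0.08 for Guide1, -0.64 for Guide2 and -0.96 against all 12; the globin list lies at -0.27, 0.08 and -0.53, and the myeloid list at 0.32, 0.51 and 0.75.

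Repression of the enhancer was set beside repression of the GATA1 start site, with no control library in the fit. GATA1 stood at 130, 96.1 and 123 CPM with GATA1TSS-Guide1 and at 60.2, 42.0 and 57.0 CPM with GATA1TSS-Guide2. The eHDAC6 libraries were all higher, by 1.67 on the log2 scale (SE 0.07, edgeR adjusted p = 2.99e-12). HDAC6 went the other way, with 212 to 300 CPM in the GATA1TSS libraries against 122 to 148 CPM in the eHDAC6 libraries, a difference of -0.88 (SE 0.06, edgeR adjusted p = 2.25e-09). In all 396 genes were higher with eHDAC6 (3.08% of 12871) and 274 lower (2.13%). Depth was uneven in this comparison. GATA1TSS-Guide2 replicate 2 held 4290343 counts and the other GATA1TSS libraries 19204390 to 23205811, against 11426981 to 15525058 in the eHDAC6 libraries. Without GATA1TSS-Guide2 replicate 2 the calls numbered 916, and the part of depth was not tested.

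Erythroid regulators were among the genes that the enhancer sgRNAs left higher. Of all genes tested 3.08% were higher with eHDAC6 than with GATA1TSS and 2.13% lower. Of the 20 regulators tested, 7 were higher and 0 lower. Beside GATA1 these were KLF1 (0.60), LDB1, a bridging cofactor of the GATA1 complex (0.49), EPOR, the erythropoietin receptor (0.42), STAT5A (0.23), MYB (0.21) and NFE2 (0.20). Against the chosen controls the regulator median was -0.04 with eHDAC6-Guide1, 0.02 with eHDAC6-Guide2, -0.03 with GATA1TSS-Guide1 and -0.14 with GATA1TSS-Guide2. Without GATA1TSS-Guide2 only 55 of all genes tested were called higher. For genes of these lists other than GATA1, results of that fit are not given here. MYC was higher by 0.43 (edgeR adjusted p = 1.68e-05). Of 44 ribosomal protein genes 15 were higher and 0 lower, by 0.16 to 0.27. Of 21 stress response genes 7 were higher and 0 lower on the mean of each element, but the sgRNAs of an element differed. Against the chosen controls the median of the stress response list was -0.08 with eHDAC6-Guide1 and -0.64 with eHDAC6-Guide2. It was -0.31 with GATA1TSS-Guide1 and -0.88 with GATA1TSS-Guide2. By these medians eHDAC6-Guide2 lay below GATA1TSS-Guide1, so the list was not higher with each enhancer sgRNA than with each start site sgRNA.

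Of the 15 largest rises named above, 2 (BMX, 0.69, and P2RX5, 0.40) were higher with eHDAC6 than with GATA1TSS, 2 (CALB1, -0.43, and SOSTDC1, -0.48) were lower, and 11 did not pass. SYTL1, for example, had a mean of 40.4 ± 3.12 CPM (SD, n = 6) with eHDAC6 and 43.7 CPM with GATA1TSS, a difference of -0.05 (SE 0.08, edgeR adjusted p = 0.793). Of the 15 falls, GATA1 and PSAT1 (0.41) were higher with eHDAC6 and 13 did not pass. WAS, which rose with eHDAC6, was on average lower with it than with GATA1TSS (-0.21, edgeR adjusted p = 0.024). The groups overlapped, at 79.9 to 96.1 CPM with eHDAC6 and 78.9 to 138 CPM with GATA1TSS.

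The genes that differed most between the elements were H19, an imprinted noncoding RNA, and HOTS, which overlaps it on the other strand, at -1.60 and -1.64 (edgeR adjusted p = 0.00028 and 0.000251). H19 was at 26.2 to 60.9 CPM in the eHDAC6 libraries, at 30.3, 108 and 42.5 CPM with GATA1TSS-Guide1 and at 192, 240 and 196 CPM with GATA1TSS-Guide2, so the excess lay chiefly in GATA1TSS-Guide2. The further genes lower with eHDAC6 were VGF, a neuroendocrine secretory protein (-1.23), the potassium channel KCNJ16 (-1.09), TMEM158 (-1.09) and COL1A1 (-1.03). Higher with eHDAC6 were UNC5B, a netrin receptor (1.06), MS4A3, a membrane protein of myeloid precursors (0.99), ANKRD33 (0.90), FYB, an adaptor of T cell and platelet signalling (0.84), and GYLTL1B, a glycosyltransferase of dystroglycan (0.80). The comparison leaned on GATA1TSS-Guide2: without that sgRNA 97 genes were called, and without GATA1TSS-Guide1 1706 were. Without GATA1TSS-Guide2 the differences of H19, HOTS, VGF, COL1A1, UNC5B, MS4A3, ANKRD33 and GYLTL1B were -0.71, -0.80, -0.83, -0.59, 0.46, 0.03, 0.44 and 0.29, and none of the 8 passed (edgeR adjusted p between 0.066 and 0.971). Without eHDAC6-Guide1 replicate 1 or 3 the count of 670 fell to 432 and 325, and without eHDAC6-Guide2 replicate 1 or GATA1TSS-Guide1 replicate 3 to 398 and 405.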

How the data were processed

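Gene-level RNA sequencing counts of 24 K562 libraries were used as deposited by the authors, as raw counts per gene with no normalization. The build was hg19, per the submitters' processing notes, which list TopHat2 2.0.8, Bowtie2 2.1.0, SAMtools 0.1.19 and Picard without their roles. How reads were counted, whether by strand, and where the sgRNAs lie is not given in the sources used here. Counts were tested with edgeR 4.0.16 (quasi-likelihood F test, TMM scaling, R 4.3.3) after a filter on low counts (minimum count 10, total 15, proportion 0.7), with 1 coefficient per sgRNA. P-values were adjusted over all genes tested by Benjamini-Hochberg, and an adjusted p under 0.05 was called. Levels are CPM on the TMM scale of all 24 libraries. The code was tested on simulated data. Alternatives were DESeq2 1.42.0, other scaling, filters, control sets, a replicate block, summed counts and leaving out each library or sgRNA.

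The members and gene lists were chosen with earlier results of these data known. Named genes were those of the locus that were called or within 100 kb of GATA1, the 15 largest rises and 15 largest falls (called, at least 5 CPM, groups apart), up to 4 called members of each list or the 2 most abundant of a list without calls, and the 6 largest called differences in each direction between sgRNAs and between elements. Gene entries that had turned into dates, 21 in all, were not named. The replicates are labelled biological, but nothing says how far apart the cultures were.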

Additional observations from a re-analysis of the deposited data

Results flagged for a closer look

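These genes are given because a test of the difference itself separated the eHDAC6 sgRNAs, or the eHDAC6 sgRNAs from the GATA1TSS sgRNAs (edgeR quasi-likelihood test, adjusted p under 0.05). Higher with eHDAC6-Guide1 than with eHDAC6-Guide2, on the log2 scale, were ATF5 (0.70), ASNS (0.69), SLC7A11 (0.67), DDIT4 (0.67), AKNA (0.66), PSAT1 (0.64) and SLC7A11-AS1 (0.61). Lower with eHDAC6-Guide1 were SLC4A1 (-1.34), PRG2 (-0.95), COL1A1 (-0.85), ACP5 (-0.80), P2RX5 (-0.77), AQP3 (-0.76), AQP1 (-0.68), HBE1 (-0.45) and HBG2 (-0.39). Each of these sgRNAs has 3 libraries.

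Higher with eHDAC6 than with GATA1TSS were GATA1 (1.67), UNC5B (1.06), MS4A3 (0.99), ANKRD33 (0.90), FYB (0.84) and GYLTL1B (0.80). Lower with eHDAC6 were HOTS (-1.64), H19 (-1.60), VGF (-1.23), KCNJ16 (-1.09), TMEM158 (-1.09) and COL1A1 (-1.03). COL1A1 is the one gene of both sets.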

How the results depend on the processing

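The direction and call of GATA1 held in every alternative run, from -0.56 to -0.50 (edgeR adjusted p 1.06e-07 to 3.58e-05) on leaving out each library. The number of genes called against the 4 controls (347, of which 197 higher and 150 lower) became 741 (447 and 294) with no filter on low counts, 3936 (2044 and 1892) against all 12 NC, 195 (121 and 74) in a fit over all 24 libraries, 66 (52 and 14) with counts summed per sgRNA, 82 (58 and 24) without eHDAC6-Guide2, 136 (68 and 68) without NC-Guide4, 16 (14 and 2) with separate controls, 21 (16 and 5) with these exchanged, 33 (25 and 8) against a 1.2-fold limit and 65 (45 and 20) where each sgRNA had to pass. On leaving out each library it ran from 114 to 1022 (67 to 666 higher, 47 to 356 lower). The 47 differences between the eHDAC6 sgRNAs (29 higher, 18 lower) became 102 (52 and 50) with no filter and 19 (13 and 6) in the fit over all 24, and ran from 12 to 73 (6 to 39 and 6 to 34) without each library. The 670 differences from GATA1TSS (396 and 274) became 1079 (644 and 435) with no filter, 1706 (875 and 831) without GATA1TSS-Guide1 and 97 (55 and 42) without GATA1TSS-Guide2, and ran from 325 to 916 (188 to 531 and 137 to 385). HDAC6 was -0.23 in the fit over all 24 (edgeR adjusted p = 0.149), -0.22 summed (0.138), -0.28 without eHDAC6-Guide1 (0.0547), -0.17 without eHDAC6-Guide2 (0.271), -0.21 without NC-Guide4 (0.202), -0.23 against a 1.2-fold limit, and -0.29 to -0.16 without each library. ADD2 turned to -0.057 against all 12 NC. Of the other values of single genes, 1872 kept direction and call, 287 lost the call and 17 gained it, and 428 list medians moved by less than the spread between libraries and 56 by more. Apart from the changes that fewer libraries or another rule make by construction, the cause was not tested. The replicate numbers were not taken to pair the libraries: deviations of same-numbered eHDAC6-Guide1 and eHDAC6-Guide2 libraries correlated at 0.288, 0.401 and 0.0198, not all over 0.1. With 2 libraries per NC sgRNA the NC deviations mirror each other, so their pairs are not separate values. Over all 13 same-numbered pairs, NC included, the correlation ran from -0.354 to 0.431 with a median of 0.0198. A replicate block gave 279 (158 and 121), 54 (31 and 23) and 923 calls, GATA1 at -0.53 and HDAC6 at -0.25 (0.018).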
